A study of Mus musculus with 69 samples.

Results

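Galectins are proteins that bind β-galactosides on glycoproteins and glycolipids, and 4 of their genes, Lgals1, Lgals3, Lgals8 and Lgals9, were followed here through 69 poly(A) RNA-seq libraries of mouse vascular cells. The members were selected by gene symbol among the 56953 gene identifiers of the count tables, and all 4 passed the filter on low counts in each cell type. The selection used measured values, because Lgals3 was chosen as a gene whose counts fall with metabolic stress in vascular smooth muscle cells (VSMC). The comparison of metabolic stress with Control in VSMC is therefore given as a description, without a test.

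Galectins lack a signal peptide and leave the cell by a route outside the classical secretory pathway. At the cell surface they cross-link glycoproteins such as integrins, CD44 and laminin, and inside the cell several of them bind glycans exposed on damaged endosomes and lysosomes. Lgals1 encodes galectin-1, with one carbohydrate recognition domain and active as a dimer. Lgals3 encodes galectin-3, the chimera type with a collagen-like tail, which is abundant in macrophages and is used as a marker of cardiac and vascular fibrosis. Lgals8 and Lgals9 encode tandem-repeat galectins with a pair of different recognition domains in one chain. In smooth muscle, galectin-1 is known as a ligand of laminin and integrins, and galectin-3 is known for its rise during vascular injury.

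The libraries came from 18 sets of cultures, and a set holds cells of one animal treated in parallel. Wild-type (WT) VSMC from aorta formed sets 1 to 4, with 4 libraries per condition. Sets 5 to 8 were VSMC in which floxed Egfr, the gene of the epidermal growth factor receptor, had been removed by a Cre under the SM22 promoter (KO VSMC), again with 4 libraries per condition except for the combined treatment with 3. Endothelial cells (EC) were collected from heart with antibody-coated beads as CD45-/CD31+ cells and formed sets 9 to 18, with 9 libraries for Control and for hormone stress and 10 each for the other conditions. All animals were male C57BL/6 mice, 13 in number, of which 9 gave EC. EC sets 17 and 18 came from one animal, EC sets 9 and 10 from animals that also gave WT VSMC, and EC sets 15 and 16 from animals that also gave KO VSMC, although these EC are labelled WT. Cells were serum-starved and treated for 24 h with vehicle (Control), with 20 mM glucose and 100 µM free fatty acids as labelled (HG + FFA, the metabolic stressors), with 30 nM angiotensin II and a 300 nM catecholamine (AII + NA, the hormonal stressors), or with all agents together (ALL). The catecholamine is norepinephrine in the study's methods and epinephrine in the labels, the methods give 100 µM for each of oleate and palmitate, and albumin was present in every condition. VSMC and EC carry different batch labels, so batch and cell type cannot be told apart.

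Libraries of WT VSMC held 23626664 to 37801299 counts, those of KO VSMC 23238979 to 35120866 and those of EC 17166133 to 43240489. Levels below are in FPM, the fragments of a gene per 1000000 counted in the library, with library totals scaled by the trimmed mean of M-values. Egfr was at 226 to 500 FPM in WT VSMC and at 0.534 to 1.99 FPM in KO sets 6 to 8, but at 33.7 to 40.2 FPM in KO set 5. Of the smooth muscle markers, Acta2 had Control means of 611 FPM in WT and 1427 FPM in KO VSMC. Myh11, the myosin heavy chain of differentiated smooth muscle, was at 6.41 and 65.4 FPM. Tagln, the gene whose promoter is used in SM22-cre, was at only 2.86 and 6.59 FPM, and 66.7% of its annotated exon bases are shared with other genes. Fibroblast markers summed to between 5932 and 12390 FPM in WT Control libraries and to between 1741 and 5352 FPM in KO Control libraries. In EC, the sum of 10 endothelial markers was 52.7 to 144.5 FPM in the 12 libraries of sets 9, 11 and 13 and 492.8 to 5050 FPM in the 26 libraries of the other 7 sets, so EC results of the galectins are also given without those 3 sets where this changes them.

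The 4 genes lie on 4 chromosomes (GRCm39). Lgals3 spans chr14:47605208-47623624 on the plus strand, and Lgals1 spans chr15:78810875-78814670 on the plus strand. Lgals8 spans chr13:12454282-12479840 and Lgals9 spans chr11:78853800-78875798, both on the minus strand. Counts were summed over whole genes, so isoforms were not separated. None of the exon bases of Lgals3 and Lgals9 are shared with another gene, whereas 2.82% of those of Lgals8 are shared with Heatr1 and 30.6% of those of Lgals1 with Gm30368, where counts could be split.

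The promoter of Lgals3 is shown because this is the gene that the selection rests on. The sequence is the 300 bases around the start of the gene (RefSeq, GRCm38.p6, chr14:47373610-47373909, plus strand), with capitals marking GC boxes (GGGCGG, searched on both strands).
Lgals3: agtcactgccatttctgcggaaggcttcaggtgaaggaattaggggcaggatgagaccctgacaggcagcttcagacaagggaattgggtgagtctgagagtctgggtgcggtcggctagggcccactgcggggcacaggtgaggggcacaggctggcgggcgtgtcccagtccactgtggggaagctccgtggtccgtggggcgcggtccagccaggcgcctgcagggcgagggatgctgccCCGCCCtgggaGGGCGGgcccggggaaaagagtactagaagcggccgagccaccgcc
In this window 67% of the bases are G or C, and 2 GC boxes were found, 1 on each strand. A GC box occurs in 35.7% of 32851 promoters of the same length. The letters of a TATA box (TATAAA, in 13.6% of promoters) and of an AP-1 site (TGACTCA, in 5.2%) were not in the windows of Lgals3, Lgals8 or Lgals9, and the latter pair held no GC box.

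In WT VSMC under Control conditions, Lgals3 was at 66.6, 55.9, 79.7 and 84.2 FPM in sets 1 to 4. With HG + FFA the same sets had 38.3, 27.1, 47.2 and 54.1 FPM. The groups did not overlap, and each set was lower than its own Control, at 0.574 ± 0.0660 of it on average (SD, n = 4, range 0.485 to 0.643). In KO VSMC, Lgals3 was at 86.2, 141.4, 139.5 and 69.5 FPM in Control sets 5 to 8 and at 60.3, 92.5, 69.3 and 34.9 FPM with HG + FFA. Here the groups overlapped because the sets differed in level, yet every set was below its Control, at 0.588 ± 0.104 of it on average (SD, n = 4). The fitted log2 fold changes were -0.81 ± 0.11 (SE) in WT and -0.79 ± 0.10 in KO VSMC. These values chose the gene and nothing is read from them, nor from the background of 0.538% of 16905 genes that passed the test in WT and 0.439% of 17538 genes in KO VSMC for this comparison.

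**Figure D1:**
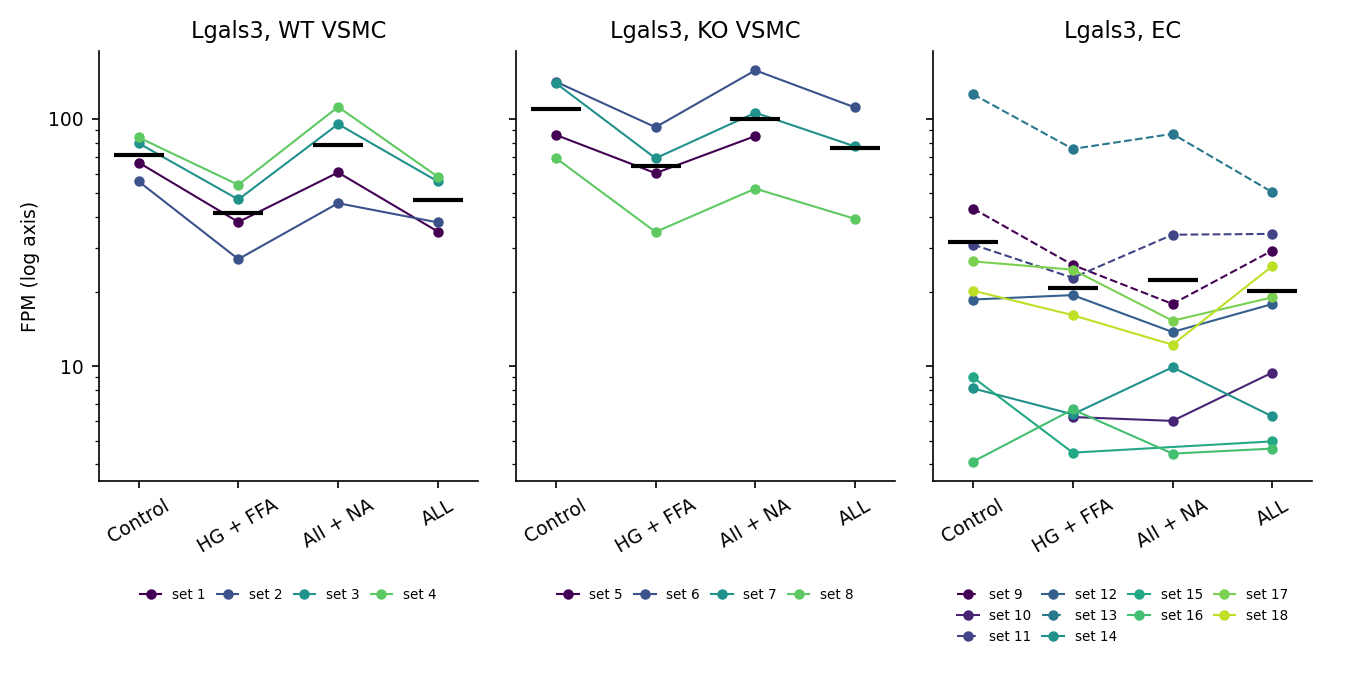
Lgals3 in each library, in FPM on a log axis, by condition in WT VSMC, KO VSMC and EC. Points of one set are joined, dashed lines mark EC sets 9, 11 and 13, and black bars are group means; in VSMC the HG + FFA and ALL points lie below the Control points of their own set, whereas EC lines cross.

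The comparison of ALL with AII + NA asks what metabolic stressors do on top of hormones, and it shares no library with the contrast that chose Lgals3. In WT VSMC, Lgals3 fell. It was at 60.7, 45.6, 95.2 and 111.8 FPM with AII + NA and at 35.0, 38.1, 55.8 and 58.3 FPM with ALL. All 4 sets had less Lgals3 with ALL, at ratios of 0.577, 0.836, 0.586 and 0.522, although the lowest AII + NA library lay below the higher ALL libraries. The log2 fold change was -0.70 ± 0.11 (SE), and the adjusted p was 0.00442 (edgeR quasi-likelihood test, Benjamini-Hochberg over all genes tested). Lgals3 was the 1 member of the 4 that passed this test, where 1.36% of all genes passed. The call depended on 1 set, since without set 3 the adjusted p was 0.0647, at log2 fold changes between -0.85 and -0.63 over the 4 fits with a set left out.

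In KO VSMC the same comparison gave lower values, and whether they passed depended on the fit. Lgals3 was at 157.2, 105.9 and 52.2 FPM with AII + NA in sets 6 to 8, and at 111.2, 77.3 and 39.4 FPM with ALL. The 3 ratios lay close together, at 0.707, 0.730 and 0.754. Fitted over all genes, this was a log2 fold change of -0.46 ± 0.11 with an adjusted p of 0.116 (edgeR), at a background of 0.399% of genes called. It was called in 3 of 9 alternatives, DESeq2 (0.0273), edgeR with no filter on low counts (0.0264) and edgeR with only the conditions compared (0.00541). With a set left out it was called in 0 of 4 fits (adjusted p of 0.0806 to 0.972, edgeR). The difference between genotypes, KO minus WT, was 0.25 ± 0.16 on the log2 scale with an adjusted p of 0.841 in the joint edgeR fit, in which 0.00545% of genes (1 of 18339) differed.

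In EC, Lgals3 did not pass this test, and most ratios were above 1. With AII + NA it was itself lower than in EC Control, at a log2 fold change of -0.47 (adjusted p of 0.719, edgeR). Its median was 13.7 FPM with AII + NA (range 4.43 to 86.97) and 18.4 FPM with ALL (range 4.64 to 50.5), and the groups overlapped over nearly their whole range. The ratio of ALL to AII + NA was under 1 in 2 of 9 sets, with a mean of 1.23 ± 0.484 (SD). The log2 fold change was 0.17 ± 0.16 with an adjusted p of 0.663 (edgeR), where 3.22% of genes passed. The difference from WT VSMC was 0.88 ± 0.25 on the log2 scale with an unadjusted p of 0.00112, which did not pass after adjustment (0.471, edgeR), and 0.00516% of genes passed there. It did not pass without EC sets 9, 11 and 13 either, at 1.0 and an adjusted p of 0.133, but it was called when no filter on low counts was used (0.85, adjusted p of 0.000171).

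**Figure D2:**
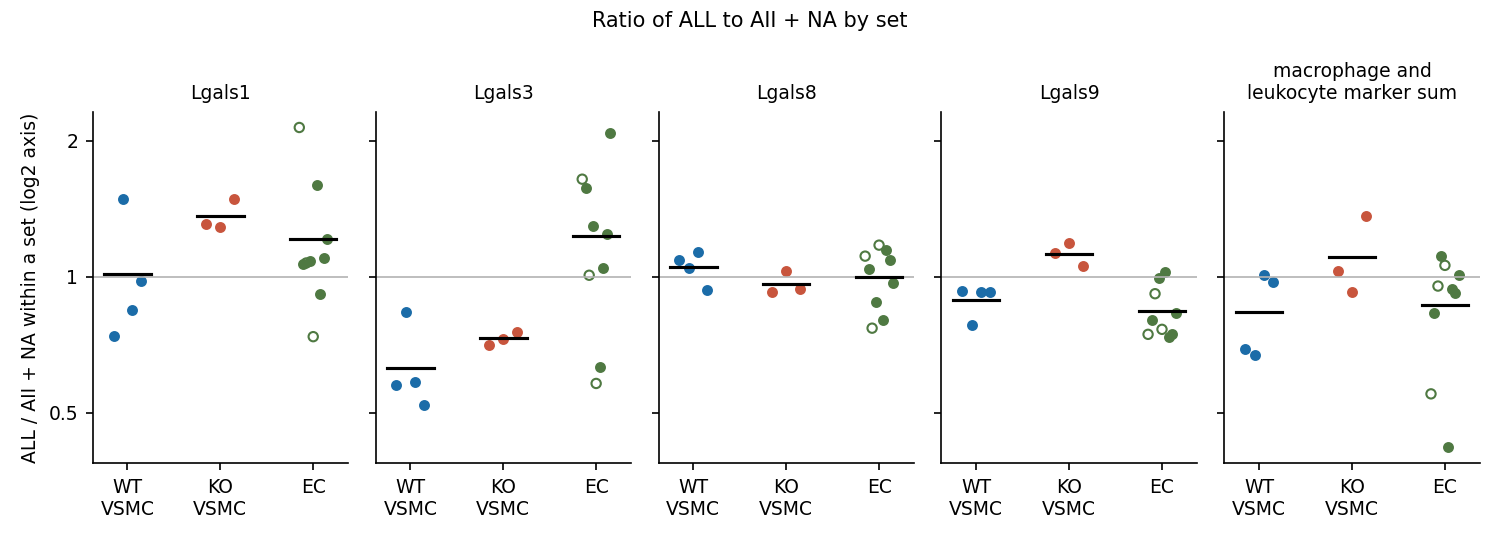
Ratio of ALL to AII + NA within each set for the 4 galectins and for the summed macrophage and leukocyte markers, on a log2 axis, with 1 point per set and a black bar for the mean; blue is WT VSMC, red is KO VSMC, green is EC, and open circles are EC sets 9, 11 and 13. All 7 VSMC ratios of Lgals3 lie below 1, and the Lgals9 ratios lie below 1 in WT VSMC (0.782 to 0.928) and above 1 in KO VSMC (1.05 to 1.19).

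Against Control, Lgals3 was lower with ALL in 4 of 4 WT and 3 of 3 KO sets that hold both libraries. This comparison shares its Control libraries with the contrast that chose the gene, so its p-values are not independent of that choice and nothing further is read from them. The WT ratios were 0.525, 0.682, 0.700 and 0.693, and the log2 fold change was -0.63 ± 0.11 with an adjusted p of 0.00285 (edgeR), where 7.45% of genes passed. The KO ratios were 0.786, 0.554 and 0.567, with a log2 fold change of -0.63 ± 0.11 and an adjusted p of 0.0249 (edgeR), where 0.399% of genes passed. In KO VSMC the call was lost without set 6 (0.135), set 7 (0.736) or set 8 (0.154). In the same KO comparison, marker lists had medians of -0.57 (fibroblast), -0.63 (endothelial) and -0.44 (cardiomyocyte). The medians were -0.14 for macrophage and leukocyte markers and -0.01 for smooth muscle markers. Of all these markers 0 were called, and their part in the Lgals3 values was not tested. In EC the log2 fold change of ALL against Control was -0.30 ± 0.16 with an adjusted p of 0.344 (edgeR), with a ratio under 1 in 6 of 9 sets and 3.18% of genes called.

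With hormones alone, the ratio of Lgals3 to Control averaged 1.06 in WT VSMC (range 0.816 to 1.33) and 0.903 in KO VSMC (range 0.752 to 1.11). This comparison again uses the Control libraries of the contrast that chose the gene. AII + NA against Control gave a log2 fold change of 0.07 ± 0.11 in WT, with 2 of 4 ratios under 1, and -0.17 ± 0.10 in KO, with 3 of 4 ratios under 1. The adjusted p was 0.882 and 0.536 (edgeR). Few genes passed at all, 0.0532% in WT and 0% in KO VSMC, where edgeR called 0 genes while 1711 had an unadjusted p under 0.05 and DESeq2 called 11. In EC the value was -0.47 ± 0.16 with an unadjusted p of 0.00661 and an adjusted p of 0.719 (edgeR), and it was called only with no filter on low counts (-0.48, adjusted p of 0.019). Again 0% of genes passed in EC, with 1143 at an unadjusted p under 0.05 and 0 called by DESeq2.

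ALL was also set against HG + FFA for Lgals3, although HG + FFA libraries belong to the contrast that chose the gene. The p-values are therefore not independent of that choice, and nothing further is read from them. Within sets, ALL was above HG + FFA in WT sets 2, 3 and 4 (38.1 against 27.1 FPM in set 2) and in KO sets 6, 7 and 8. It was below HG + FFA in WT set 1 (35.0 against 38.3 FPM). On the log2 scale ALL was above HG + FFA by 0.18 ± 0.11 in WT (adjusted p of 0.566) and by 0.16 ± 0.11 in KO VSMC (0.999), and in EC by 0.06 ± 0.15, with an adjusted p that rounds to 1, all from edgeR. In this comparison 0.0414% of genes passed in WT VSMC. In KO VSMC 0% passed, with 510 genes at an unadjusted p under 0.05 and 0 called by DESeq2, and in EC 0% passed, with 881 genes and 0 called by DESeq2. A p that misses the threshold does not show that hormones add nothing.

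HG + FFA was tested in EC, which the selection did not use. Lgals3 had a median of 20.2 FPM in Control (range 4.11 to 125.8) and 17.7 FPM with HG + FFA (range 4.46 to 75.58), and 7 of 9 ratios were under 1. The log2 fold change was -0.37 ± 0.16 with an adjusted p of 0.214 (edgeR), where 3.53% of genes passed, and again it was called with no filter on low counts (-0.38, adjusted p of 0.02).

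**Figure D3:**
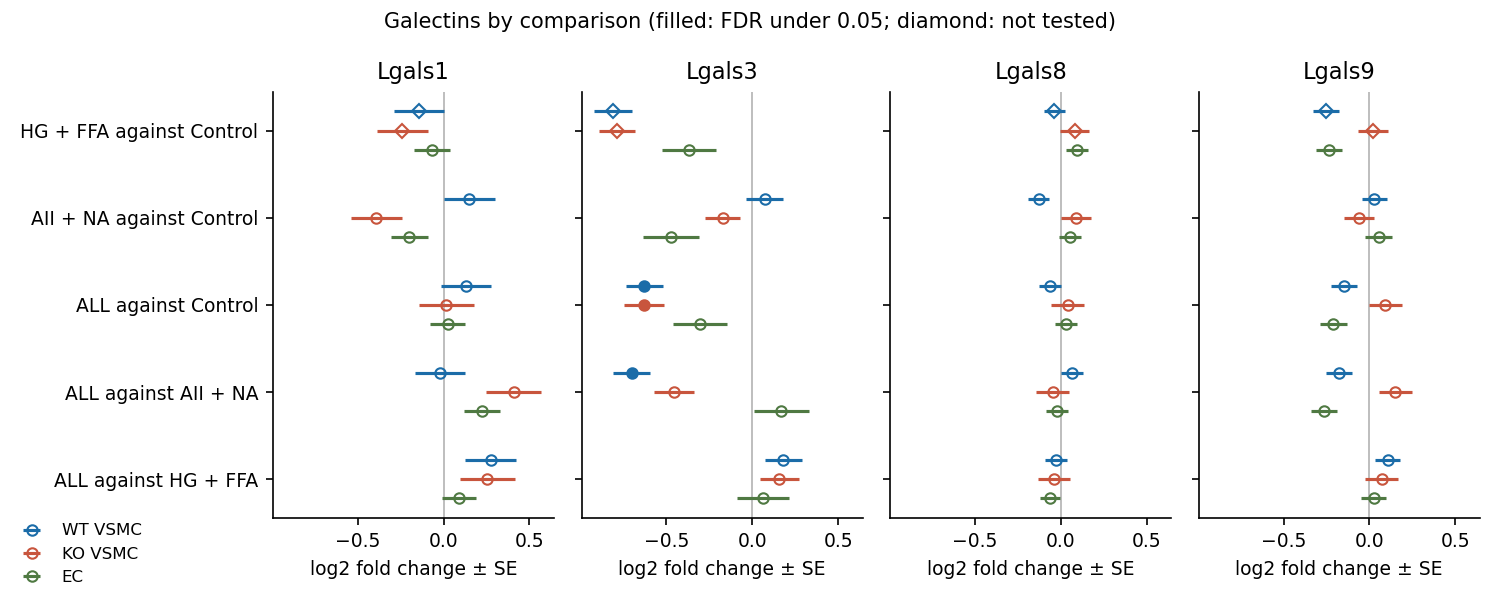
Fitted log2 fold change ± SE of each galectin in 5 comparisons, for WT VSMC (blue), KO VSMC (red) and EC (green); filled symbols passed an adjusted p of 0.05 and diamonds were not tested. The 3 filled symbols are Lgals3, at -0.70 and -0.63 in WT and -0.63 in KO VSMC, and the values of -0.63, against Control, share libraries with the contrast that chose the gene.

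Markers of fibroblasts and of endothelial cells had lower sums beside Lgals3 in VSMC. In ALL against AII + NA, the summed fibroblast level was lower in each VSMC set with both libraries, at ratios of 0.749, 0.815, 0.871 and 0.871 in WT sets and 0.878, 0.743 and 0.880 in KO sets. Of 8 fibroblast markers, 0 rose and 2 fell in WT VSMC (Pi16 by 0.90 and Clec3b by 0.62 on the log2 scale), with a list median of -0.37 against 0.01 over all genes and 1.36% of all genes called. None of the 8 passed in KO VSMC, with a median of -0.36. Summed levels in WT VSMC spanned 5237 to 10110 FPM with AII + NA and 3921 to 8809 FPM with ALL, and all 8 markers were detected. The Clec3b call was lost in 3 of 4 fits with a set left out. The endothelial sum, which was at most 62.6 FPM with AII + NA in WT VSMC, had ratios of 0.888, 0.577, 0.697 and 0.796 in WT sets and 0.927, 0.518 and 0.755 in KO sets. Its list medians were -0.44 and -0.35, and 0 of 10 and 0 of 9 endothelial markers tested passed. Smooth muscle sums had ratios of 0.767, 0.953 and 0.773 in KO sets 6 to 8 and of 0.533 to 1.39 in WT sets, and cardiomyocyte sums had 0.641, 0.348 and 0.489 in KO sets and 0.716 to 1.95 in WT sets.

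In WT VSMC, macrophage and leukocyte markers had lower sums than fibroblast and smooth muscle markers, but higher sums than endothelial markers in the same library. The macrophage and leukocyte sum was 35.4 to 247.6 FPM with AII + NA and 35.6 to 171.3 FPM with ALL. Of the 12 markers, 9 had a Control mean of 1 FPM or more, and Ptprc, Itgam and Fcgr1 were under it. Of the 10 tested, 0 passed in either direction, with a median of -0.40. The ratios of the sum were 0.692, 0.670, 1.01 and 0.973 in sets 1 to 4, beside Lgals3 ratios of 0.577, 0.836, 0.586 and 0.522 in the same sets. In KO sets 6 to 8 the ratios were 1.03, 0.925 and 1.36, and the median was 0.18. Against Control, where ALL was set against the libraries that chose Lgals3, 7.45% of all genes were called in WT VSMC. The macrophage gene C1qb fell by 0.99 (adjusted p of 0.0144, edgeR, 1 of 10 markers), the endothelial genes Cdh5 and Emcn by 1.17 and 1.57 (2 of 10), and the fibroblast genes Pi16, Clec3b, Gsn and Col15a1 by 0.85, 0.84, 0.61 and 1.26 on the log2 scale (4 of 8). The smooth muscle genes Mylk (1.11) and Tagln (0.95, 2 of 10) and the troponin gene Tnnt2 (1.07, 1 of 2 cardiomyocyte markers tested) rose there. With a set left out, the Emcn call was lost in 4 of 4 fits (-2.63 to -1.15), the Tagln (0.67 to 1.25) and Tnnt2 (0.72 to 1.34) calls in 3 of 4, the C1qb call in 2 of 4 and the Cdh5 call in 1 of 4. The part of all these markers in the Lgals3 values was not tested. In such bulk samples, fewer cells of a type and less RNA per cell cannot be told apart.

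Lgals1 was the most abundant member per length. Under Control conditions its mean was 560 FPM per kb of exon in WT VSMC and 846 FPM per kb in KO VSMC, against 382 FPM per kb in EC. Lgals9 followed with 73.9, 57.2 and 53.7, then Lgals3 with 31.1, 47.3 and 13.8, and Lgals8 with 14, 13.1 and 13.4 FPM per kb. In EC the spread of Lgals3 covered that of Lgals8, so their order there is not resolved.

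Lgals1 passed no test of treatment in edgeR with the filter on low counts and all libraries of a cell type. In WT VSMC it was at 1248, 810.9, 981.7 and 1177 FPM with AII + NA and at 924.1, 1207, 829.1 and 1155 FPM with ALL, which overlap. The log2 difference was -0.02 ± 0.15. In KO VSMC the 4 libraries with AII + NA had 932.8 to 1144 FPM, and those with ALL had 1274, 1437 and 1697 FPM. The within-set ratios were 1.31, 1.29 and 1.48. The log2 fold change of 0.41 ± 0.16 had an adjusted p of 0.374 (edgeR), where 0.399% of genes passed. It passed in 2 of 9 alternatives, with no filter on low counts (0.0352) and when only the libraries of both conditions were fitted (0.0125). With a set left out it was called in 0 of 4 fits, at an adjusted p of 0.178 or more (edgeR). AII + NA against Control in KO VSMC gave -0.39 ± 0.15 (0.509), and this too passed with no filter on low counts (-0.41, 0.0248). With a set left out this value ran from -0.53 to -0.18 and was called in 0 of 4 fits. KO minus WT for ALL against AII + NA was 0.43 ± 0.23 with an adjusted p of 0.818. In EC the value was 0.22 ± 0.10 (adjusted p of 0.292), with 7 of 9 ratios above 1. One KO Control library, set 8, stood at 2302 FPM against 888.9, 1167 and 1362 FPM in sets 5 to 7, and that set had the lowest ratios to Control, 0.575 with HG + FFA, 0.497 with AII + NA and 0.737 with ALL.

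Lgals8, whose product is known as a sensor of damaged endolysosomes, varied little between group means. These lay between 69.8 and 78.4 FPM in all 12 combinations of cell type and condition. Single EC libraries ranged from 43.9 to 126 FPM. EC sets 9, 11 and 13 had a median of 59.5 FPM, against 76.6 FPM in the other 7 sets. The largest fitted difference from treatment was -0.13 ± 0.06 for AII + NA against Control in WT VSMC. Control sets had 79.5, 77.3, 72.8 and 76.9 FPM, and AII + NA sets had 72.4, 69.7, 66.4 and 70.8 FPM, with ratios between 0.901 and 0.920. The adjusted p was 0.554 (edgeR), where 0.0532% of all genes passed.

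Lgals9 gave small values that pointed in different directions in the genotypes. In ALL against AII + NA, WT VSMC had 202.4, 170.2, 159.3 and 144.5 FPM without and 187.9, 133.1, 147.7 and 133.6 FPM with metabolic stressors, and 4 of 4 sets were lower. KO sets 6 to 8 had 126.6, 138.8 and 103.0 FPM and then 142.7, 165.0 and 108.6 FPM, with 0 of 3 sets lower. The log2 fold changes were -0.18 ± 0.07 (adjusted p of 0.284) and 0.15 ± 0.10 (0.628), and their difference of 0.33 ± 0.12 had an unadjusted p of 0.00791 and an adjusted p of 0.599 (edgeR joint fit). In EC 8 of 9 sets were lower, from a median of 132.4 FPM (range 80.1 to 169.6) to 105.0 FPM (range 60.0 to 146.8). The fitted value there was -0.26 ± 0.08 on the log2 scale, with an adjusted p of 0.0509 in edgeR and 0.0242 in DESeq2. HG + FFA against Control in EC gave -0.23 ± 0.08 with an adjusted p of 0.088, and in VSMC, as a description only, -0.25 ± 0.07 in WT and 0.02 ± 0.09 in KO.

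**Figure D4:**
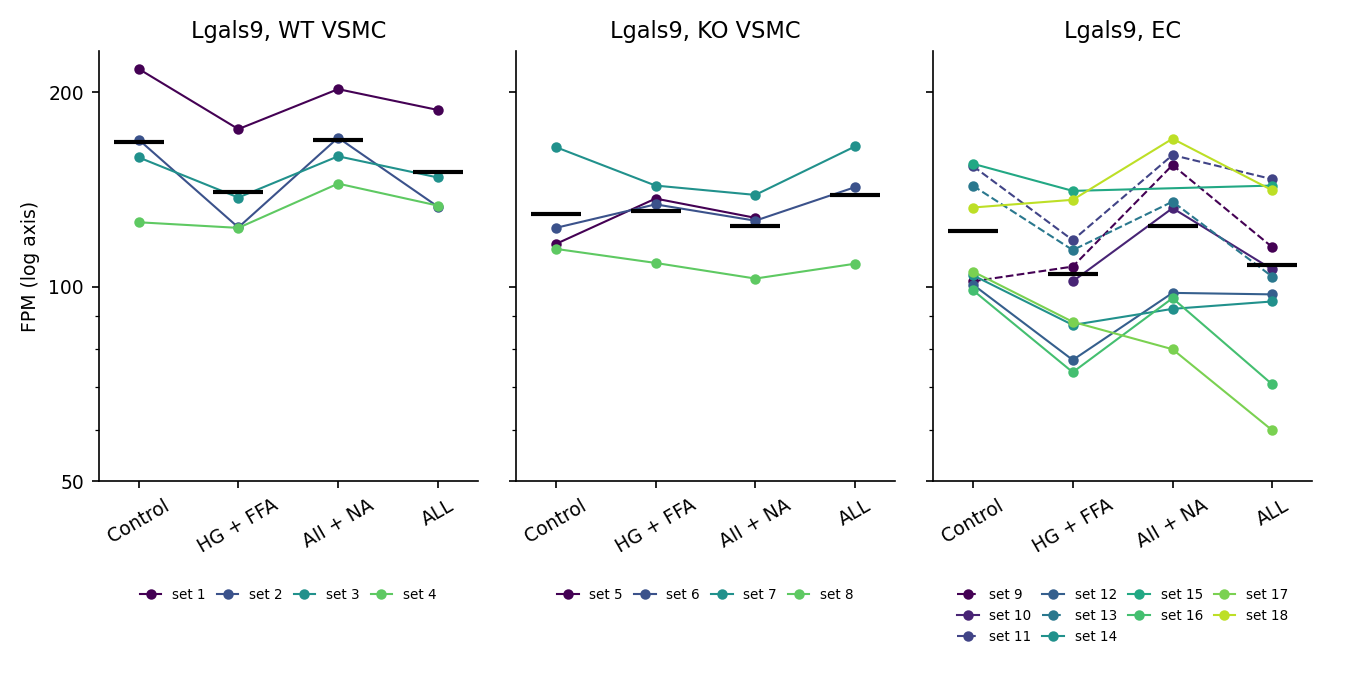
Lgals9 in each library, in FPM on a log axis, drawn as for Lgals3 with points of one set joined and black bars for group means. From AII + NA to ALL the lines go down in WT VSMC and in 8 of 9 EC sets and up in the 3 KO VSMC sets with both libraries.

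Control levels were compared between cell types without a block. Lgals3 was lower in EC than in KO VSMC by a log2 difference of -1.76 ± 0.59 (adjusted p of 0.041, edgeR), and Lgals1 by -1.13 ± 0.39 (0.0466), where 22.8% of genes differed. The Lgals1 call was lost in 14 of 17 fits with a set left out and with no filter on low counts, and the Lgals3 call held in 5 of the 17. Against WT VSMC the EC values were -1.15 ± 0.60 for Lgals3 (0.193), -0.54 ± 0.40 for Lgals1 (0.368), -0.03 ± 0.19 for Lgals8 (0.927) and -0.44 ± 0.18 for Lgals9 (0.0959), with 15% of genes called. Between KO and WT VSMC the log2 differences were 0.60 ± 0.73 for Lgals3 (0.913), 0.59 ± 0.48 for Lgals1 (0.862), -0.10 ± 0.22 for Lgals8 (0.961) and -0.38 ± 0.21 for Lgals9 (0.814). There 0% of genes passed in edgeR, with 993 at an unadjusted p under 0.05 and 32 called by DESeq2. Fibroblast marker sums in Control did not overlap between WT and KO VSMC, and their part in these values was not tested.

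EC sets with few endothelial markers differed from the others in Lgals3 and in part in Lgals1 and Lgals8. Lgals3 had a median of 34.1 FPM (range 17.8 to 125.8) in the 12 libraries of sets 9, 11 and 13, which had few endothelial markers, and 9.65 FPM (4.11 to 26.5) in the other 26. Lgals1 had medians of 1066 FPM (245 to 1566) and 418 FPM (282 to 678). For Lgals1, the mean of set 9 (402.8 FPM) was within the range of the other 7 sets. Its AII + NA library was below that range, at 244.6 FPM, the lowest of all EC libraries. Among the other 7 sets, Lgals3 had set means of 21.3 FPM in set 17 (endothelial sums of 492.8 to 650.5 FPM) and 4.96 FPM in set 16 (764 to 836 FPM). It had 6.15 to 7.66 FPM in sets 10, 14 and 15 (1843 to 4166 FPM), and 17.4 and 18.5 FPM in sets 12 and 18 (3432 to 5050 FPM). The same 3 sets had more fibroblast markers (sums of 1902 to 5754 against 630 to 2162 FPM) and more smooth muscle markers (818 to 3945 against 212 to 1016 FPM). Their macrophage and leukocyte marker sums had a median of 68.9 FPM (31.5 to 106.6) against 25.1 FPM (4.94 to 76.7), and the part of these markers in the galectin levels was not tested. Without them, Lgals3 in EC was lower than in WT VSMC by -2.28 on the log2 scale (adjusted p of 0.00145) and lower than in KO VSMC by -2.88 (0.000399), and Lgals1 was lower by -1.01 (0.0219) and -1.60 (0.00162), all from edgeR. Those sets were left out after the data had been seen.

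**Figure D5:**
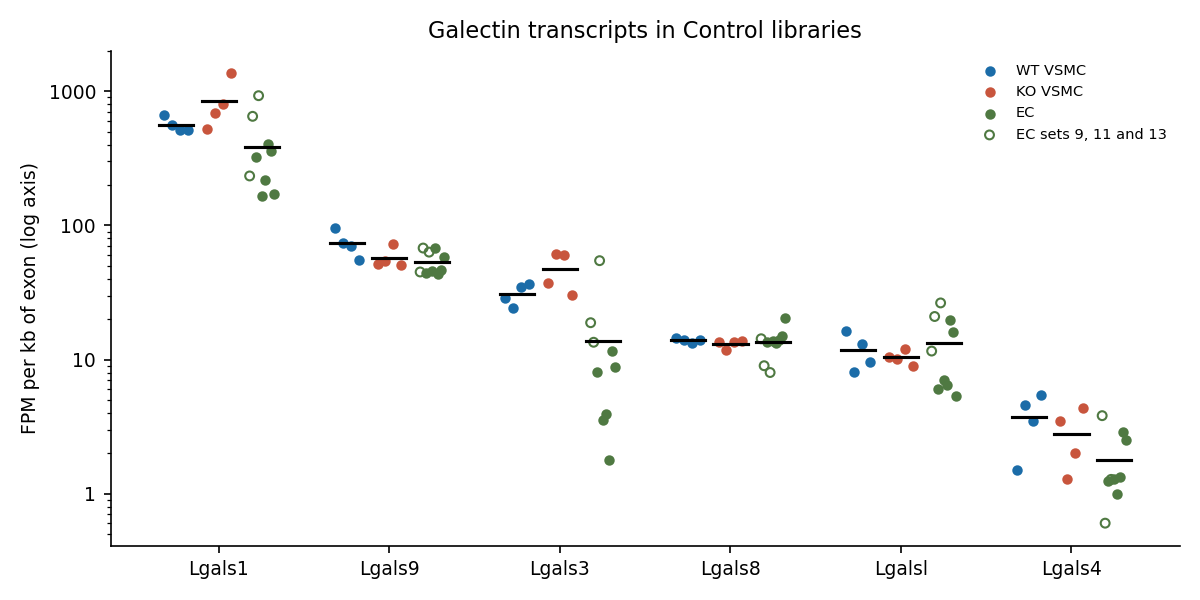
Control level of the 4 galectins and of Lgalsl and Lgals4 in FPM per kb of annotated exon on a log axis, with 1 point per library and a bar for the mean; blue is WT VSMC, red is KO VSMC, green is EC, and open circles are EC sets 9, 11 and 13. Lgals1 has the highest means (382 to 846 FPM per kb) and the Lgals8 means lie within 13.1 to 14 FPM per kb, while Lgals3 in EC reaches from well below the VSMC libraries to above some of them.

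The genes whose pattern was nearest to each member were found over the 31 VSMC libraries (8 sets), as the correlation of log2 FPM after centring on the set, among 10969 genes. The libraries share conditions and depth and include those that chose Lgals3, so these values are descriptions. Nearest to Lgals3 were Anxa7 (r = 0.957), Nbl1 (0.924) and Glipr2 (0.902), and 12.3% of genes had an r above 0.5 with it. Nearest to Lgals1 were Coa3 (0.951), Cox6b1 (0.949) and Tmem50a (0.942), with 21.2% of genes above 0.5. Lgals9 was nearest to the class I histocompatibility genes H2-D1 (0.869) and H2-K1 (0.767) and to Ube2g2 (0.770), and Lgals8 to Myo5a (0.801), Sh3glb1 (0.788) and Rbms3 (0.778). Among the members themselves, r was highest between Lgals3 and Lgals9 (0.488) and lowest between Lgals1 and Lgals8 (-0.537). The 10 genes nearest to Lgals1 had a median of 2615 exon bases, and those nearest to Lgals9 had 3088. The medians were 6442 for Lgals3 and 10330 for Lgals8. The part of gene length in these correlations was not tested.

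Of the other galectin genes, Lgals4, a tandem-repeat galectin, had values opposite to those of Lgals3 in ALL against AII + NA in VSMC, though not in EC. In WT VSMC it was higher with ALL than with AII + NA by 0.67 ± 0.15 (adjusted p of 0.0325, edgeR), in KO VSMC the value was 0.86 ± 0.18 (0.0572), and in EC it rose by 0.76 ± 0.14 (0.000781). The ratio was above 1 in 4 of 4, 3 of 3 and 9 of 9 sets. The WT call was lost in 3 of 4 fits with a set left out. Against Control in EC, Lgals4 rose with HG + FFA (0.79 ± 0.13, adjusted p of 0.000407) and with ALL (0.57 ± 0.13, 0.0133, lost with only complete sets fitted), where the Lgals3 values were -0.37 and -0.30. Lgals4 was scarce, at 2.37 to 22.1 FPM in EC. Lgalsl, a galectin-like gene, rose in WT VSMC with ALL against Control (0.57 ± 0.11, adjusted p of 0.00457) but not against AII + NA (0.13, 0.646). Lgals7, Lgals12 and Grifin had Control means under 1 FPM in every cell type, and Lgals2 in VSMC.

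Among 13 ligands and counter-receptors of galectins, ALL against AII + NA gave 0 higher and 1 lower in WT VSMC, with a median of -0.07, where 1.36% of all genes were called. The gene that fell was Pdpn, which encodes podoplanin, by 0.46 on the log2 scale (adjusted p of 0.00442, edgeR), and the call was lost in 1 of 4 fits with a set left out. It did not pass in KO VSMC (0.06), nor did the difference between genotypes (0.53, adjusted p of 0.226). In KO VSMC 0 of 13 passed (0.399% of all genes), and in EC (3.22% of all genes) 0 rose and 2 of 12 fell, namely Cd44 (-0.49, adjusted p of 8.41e-05), the hyaluronan receptor, and Nrp1 (-0.36, 0.0107), a co-receptor for VEGF. These EC genes were chosen after their values were seen. Cd44 was called in 17 of 18 alternatives, all but the fit without a block, and Nrp1 in 13 of 18, where the call was lost with animal as the block, with only complete sets, without a block, with only the conditions compared and without 1 set. In the same EC comparison, 1 of 8 fibroblast markers fell (Col15a1, -0.93, 1.56e-05), with a list median of -0.34, and 2 of 10 endothelial markers rose, Emcn among them (0.34, 0.0143, called in 13 of 18 alternatives and lost without sets 9, 11 and 13), and their part in the Cd44 and Nrp1 values was not tested. Of 14 genes that build the glycans bound by galectins, 0 passed in either VSMC and 1 rose in EC (Mgat4b, 0.27, adjusted p of 0.029). The Mgat4b call was made in 8 of 18 alternatives and was lost in 5 of 10 fits with a set left out, with animal as the block and without sets 9, 11 and 13. Against Control, Man2a1, which encodes a Golgi mannosidase, rose in WT VSMC with ALL (0.36, adjusted p of 0.0435, edgeR, 7.45% of all genes called) and B3gnt8, which extends poly-N-acetyllactosamine, fell by 0.79 (0.00697), although 36.5% of its exon bases are shared with Bckdha. With a set left out, the Man2a1 call was lost in 4 of 4 fits and the B3gnt8 call in 1 of 4. Man2a1 also rose in EC against Control with ALL, by 0.32 (adjusted p of 0.00174, edgeR), where 3.18% of all genes were called. With HG + FFA it rose by 0.36 (0.000372), where 3.53% were called. These calls were made in 15 and 17 of 18 alternatives, and the call with ALL was lost with animal as the block. With ALL, 1 of the 14 genes fell, Slc35a2, at -0.31 to -0.22 over the alternatives and called in 7 of 18. Of 8 fibroblast markers in EC, 0 rose and 2 fell with ALL, and 0 rose and 3 fell with HG + FFA. Their part in the Man2a1 and Slc35a2 values was not tested. Genes of the response to damaged endolysosomes, where galectin-3 and galectin-8 act, were compared for ALL against AII + NA. Of the 11 tested, 0 passed in any of the 3 cell types. The WT VSMC median was 0.01 (1.36% of all genes called), that of KO VSMC 0.03 (0.399%) and that of EC 0.02 (3.22%).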

How the data were processed

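Per the labels and the study's methods, the authors aligned paired-end poly(A) reads with HISAT2 (2.1.0) to mm39 and counted them per gene with featureCounts, multi-mapping reads included. The strand setting is not given in the sources used here. The deposited values were raw counts per gene and library, in a table per cell type. Of 56953 identifiers, 56310 matched the GENCODE annotation of GRCm39, and the rest held 0.0241% of counts. The smallest chi-square per gene between libraries of a condition was 41.9, so no library was a duplicate.

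Counts were tested with edgeR (4.0.16, R 4.3.3) by its quasi-likelihood test, with TMM scaling, filterByExpr and a model of set and condition for each cell type. Genes with a Benjamini-Hochberg adjusted p under 0.05 over all genes tested were called. Set numbers mark cells of one animal and therefore pair the libraries. Differences between cell types came from joint fits, and Control levels from a fit without sets. FPM per kb used the union of annotated exons. Scripts were tested on simulated counts. DESeq2 (1.42.0), other scaling, filters, blocks and left-out sets were alternatives, and limma (3.58.1) on log2(FPM + 0.1) for Control levels. Where sets share an animal, p-values measure partly the spread between cultures. The members and gene lists were chosen with earlier results of these data known. Named genes were the 4 members, the other galectins, up to 4 genes per list with the smallest adjusted p in VSMC, and the 3 genes nearest to each member. Lgals1 had no entry in the promoter table.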

Additional observations from a re-analysis of the deposited data

Results flagged for a closer look

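Of 84 groups of values (44 of libraries and 40 of within-set ratios) of 4 to 10 samples, 10 held a sample far from the others by Dixon's criterion, where chance gives about 1 in 20 groups. Lgals3 in EC set 13 stood out with 125.8 FPM in Control (next 43.4), 86.97 FPM with AII + NA (next 34.0) and 75.58 FPM with HG + FFA (next 25.6), and set 13 is among the 3 sets with few endothelial markers. Lgals8 in EC set 18 stood out with 114.3 FPM with AII + NA and 126.0 FPM with HG + FFA. Lgals8 was low in KO VSMC Control set 6, at 64.14 FPM against at least 74.0 FPM in the other sets. Among ratios, Lgals3 in EC set 16 was at 1.626 of Control with HG + FFA (next 1.04), and Lgals3 in WT VSMC set 1 was at 0.5254 of Control with ALL against 0.682 to 0.700 in the other sets. The Lgals8 ratio of HG + FFA to Control reached 1.363 in 1 EC set, and the Lgals9 ratio of ALL to AII + NA was 0.782 in WT VSMC set 2 against at least 0.925 in the others.

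The Lgals9 ratio of ALL to AII + NA was under 1 in every WT VSMC set (mean 0.8905) and over 1 in every KO VSMC set (mean 1.123). The test of the difference itself gave an adjusted p of 0.599 (edgeR joint fit).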

How the results depend on the processing

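Of 1653 alternative values, 1428 kept direction and call. For the 5 member results that were called, 0 of 71 alternatives turned the direction. Among them, Lgals3 for ALL against Control in WT and KO VSMC uses the Control libraries of the contrast that chose the gene. The direction of those results is not independent of that choice, and nothing is read from its stability. Without the replicate block, that is without pairing by set, Lgals3 was not called for ALL against AII + NA in WT VSMC (-0.75), ALL against Control in WT (-0.61) or in KO VSMC (-0.52), and values in EC turned to -0.14 (ALL against AII + NA) and -0.04 (ALL against HG + FFA), and to -0.16 for Lgals1 (ALL against Control). Fits without 1 set gave ranges of -0.85 to -0.63 and -0.66 to -0.53 for the former pair in WT and -0.76 to -0.55 in KO VSMC. They gave -2.41 to -1.61 and -1.40 to -0.80 for the Lgals3 and Lgals1 levels in EC minus KO VSMC, and -1.81 to -1.0 for Lgals3 in EC minus WT VSMC, called without set 13 alone. Tested but uncalled values that turned with a set left out were Lgals1 (ALL against Control -0.06 to 0.13 in EC and -0.09 to 0.20 in KO VSMC, ALL against AII + NA -0.24 to 0.10 in WT VSMC), Lgals3 (AII + NA against Control -0.03 to 0.19 in WT VSMC, ALL against HG + FFA -0.02 to 0.13 in EC), Lgals8 (level -0.05 to 0.14 in EC minus KO and -0.13 to 0.04 in EC minus WT VSMC, ALL against AII + NA -0.05 to 0.03 and against Control -0.01 to 0.07 in EC, ALL against Control -0.04 to 0.09 in KO VSMC, ALL against HG + FFA -0.07 to 0.02 in WT VSMC) and Lgals9 (level -0.13 to 0.07 in EC minus KO VSMC, AII + NA against Control -0.02 to 0.12 in EC, -0.12 to 0.001 in KO and -0.01 to 0.08 in WT VSMC, ALL against HG + FFA -0.01 to 0.09 in EC). Lgals9 for HG + FFA against Control in KO VSMC, not tested, ran from -0.05 to 0.10. In complete EC sets Lgals3 for ALL against HG + FFA was -0.0003.

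Lgals3 for ALL against AII + NA in KO VSMC was called by DESeq2 (-0.45), with no count filter (-0.45) and with only the conditions compared (-0.46), which turned Lgals1 for ALL against Control to -0.09. With no count filter Lgals3 was called for AII + NA (-0.48) and HG + FFA (-0.38) against Control in EC and for EC minus WT VSMC (0.85), and the Lgals1 level in EC minus KO VSMC was lost (-1.14). Without EC sets 9, 11 and 13, an alternative chosen after seeing the data, the Lgals3 level in EC minus WT VSMC was called (-2.28). It turned uncalled values of Lgals8 (level 0.13, AII + NA against Control -0.01, ALL against Control -0.02) and Lgals9 (AII + NA against Control -0.02, ALL against HG + FFA -0.0009). The cause was not tested.

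Counts of called genes moved more than the members. For ALL against AII + NA, edgeR called 230, 70 and 552 genes in WT VSMC, KO VSMC and EC, DESeq2 541, 300 and 899, no count filter 966, 434 and 845, only the conditions compared 120, 861 and 209, and no block 0, 0 and 3. Fits without 1 set gave 56 to 137, 2 to 127 and 352 to 682. Whether set number or depth limited the calls was not tested.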
